A study of Mus musculus with 2 samples.

Results

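Protamines and transition proteins are small basic proteins that take the place of histones on the DNA as spermatids become sperm. The 5 mouse genes with these names are Prm1, Prm2, Prm3, Tnp1 and Tnp2, of which Prm3 belongs by name only. They were taken from the full expression table by their Entrez gene identifiers (19118, 19119, 19120, 21958 and 21959), and all 5 had a value among 33384 genes with one. Each passed the minimum level of 1 CPM (reads per 1000000 reads of the library) that 19389 genes passed, so the description below covers every member. The mice were BALB/c aged 45 postnatal days, and their testis RNA gave 2 poly(A) libraries. The control library is the one whose labels name no treatment, and the other came from mice exposed to bisphenol A (BPA), an industrial chemical with weak estrogen-like activity, with no dose, route or duration given in the sources used here. Material of 3 samples was mixed for each library, so each group has 1 library, no difference below has a replicate check, and no test was made between the groups. In bulk tissue, fewer cells of a type and less RNA per cell cannot be told apart.

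In round and elongating spermatids the histones are removed from most of the genome. Transition proteins take their place for a short time, and protamines, which are rich in arginine and cysteine, then wind the DNA into a compact form. Prm1 encodes a protamine that is made in its final form. Prm2 encodes a precursor that is trimmed after it has bound DNA, and the proportion of both proteins in sperm is used as a measure of chromatin quality. Tnp1 and Tnp2 encode the main transition proteins. Prm3 lies beside Prm2 and is named as a protamine, but its product is acidic and is not known as a packaging protein of sperm DNA. These genes are transcribed in round spermatids under the activator CREM, and their mRNAs are stored for days before translation. An mRNA level in whole testis is therefore not a measure of the protein in sperm.

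The protamine genes and Tnp2 form a compact cluster on chromosome 16, while Tnp1 stands alone on chromosome 1. In RefSeq on GRCm38, the build that mm10 names, Tnp2 spans chr16:10787935-10788655, Prm3 chr16:10790508-10790914, Prm2 chr16:10791377-10792105 and Prm1 chr16:10796332-10796823, a stretch of 8.89 kb with all 4 genes on the minus strand. Tnp1 spans chr1:73015074-73015899, also on the minus strand. The GENCODE transcript nearest the RefSeq span has 2 exons in Prm1, Prm2, Tnp1 and Tnp2 and 1 exon in Prm3. Coding parts, stop codon included, are 156 bases in Prm1, 324 in Prm2, 306 in Prm3, 168 in Tnp1 and 354 in Tnp2.

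The 120 bases before each RefSeq start are shown because members that share this cluster differed in how far apart the libraries stood. They come from RefSeq on GRCm38.p6, are printed 5′ to 3′ on the gene's strand and end at the base before the start. Capitals mark matches to TGANNTCA, the outer letters of the cAMP response element that CREM binds, and to the TATA-type words TATAA and TATATA, each searched on both strands.

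Prm1: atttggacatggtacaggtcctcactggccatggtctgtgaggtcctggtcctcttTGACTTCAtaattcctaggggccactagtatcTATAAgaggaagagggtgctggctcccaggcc
Tnp2: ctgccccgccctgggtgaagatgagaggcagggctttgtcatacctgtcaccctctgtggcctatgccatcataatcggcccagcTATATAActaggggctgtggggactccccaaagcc
Prm2: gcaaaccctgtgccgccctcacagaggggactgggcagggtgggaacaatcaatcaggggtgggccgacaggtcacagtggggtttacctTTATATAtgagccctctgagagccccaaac
Prm3: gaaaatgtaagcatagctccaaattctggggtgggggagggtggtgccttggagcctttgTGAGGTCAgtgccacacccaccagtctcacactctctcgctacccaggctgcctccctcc
Tnp1: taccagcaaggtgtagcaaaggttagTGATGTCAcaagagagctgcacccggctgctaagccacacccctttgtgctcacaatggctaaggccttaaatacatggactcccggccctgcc

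These windows lie at chr16:10796824-10796943 (Prm1), chr16:10788656-10788775 (Tnp2), chr16:10792106-10792225 (Prm2), chr16:10790915-10791034 (Prm3) and chr1:73015900-73016019 (Tnp1). The word TGANNTCA was found in Prm1, from 64 to 57 bases before the start, in Prm3, from 60 to 53, and in Tnp1, from 94 to 87. Among 32851 RefSeq promoter windows, 7.14% hold it in the same 120 bases. TATAA was found in Prm1, Prm2 (on the opposite strand) and Tnp2, against 11.8% of windows, and TATATA, which overlaps it there, in Prm2 and Tnp2, against 2.51%. Prm1 and Tnp2, the members that stood higher in the BPA library, thus share TATAA, which Prm2 has too, and differ in TGANNTCA. A match is a run of letters and does not show a bound site.

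By level, 4 of the 5 genes were among the most abundant transcripts of the testis in both libraries. Tnp2 stood at 5257 CPM in the control library and 6120 CPM in the BPA library, rank 2 of all genes in each. Prm2 followed at 3842 and 3895 CPM, rank 5 and rank 4. Tnp1 had 2834 and 2700 CPM, rank 9 and rank 10. Prm1 had 1463 and 1762 CPM, rank 33 and rank 25. Prm3, at 118 and 120 CPM, ranked only 2026th in the control library and 1965th in the BPA library. Together the 5 genes took 1.35% of the control library and 1.46% of the BPA library.

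Levels of different genes compare only per length. Per kilobase of all annotated exons, Tnp2 led with 9490 CPM per kb in the control library and 11047 in the BPA library. Tnp1 followed with 6484 and 6179 CPM per kb, then Prm2 with 4298 and 4357, Prm1 with 2562 and 3085, and Prm3 with 288 and 293. This order was the same in both libraries. Neighbours in it depend on which length is used: per kilobase of the transcript nearest the RefSeq span, Prm2 (6272 CPM per kb) stood just above Tnp1 (6179) in the BPA library and below it (6187 against 6484) in the control library. A further scale divided all reads of a gene, untranslated parts included, by its coding length alone, which raises genes with a large untranslated share. On that scale Tnp1 led the control library with 16867 CPM per kb against 14852 for Tnp2. Tnp2 led the BPA library with 17289 against 16073.

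**Figure D1:**
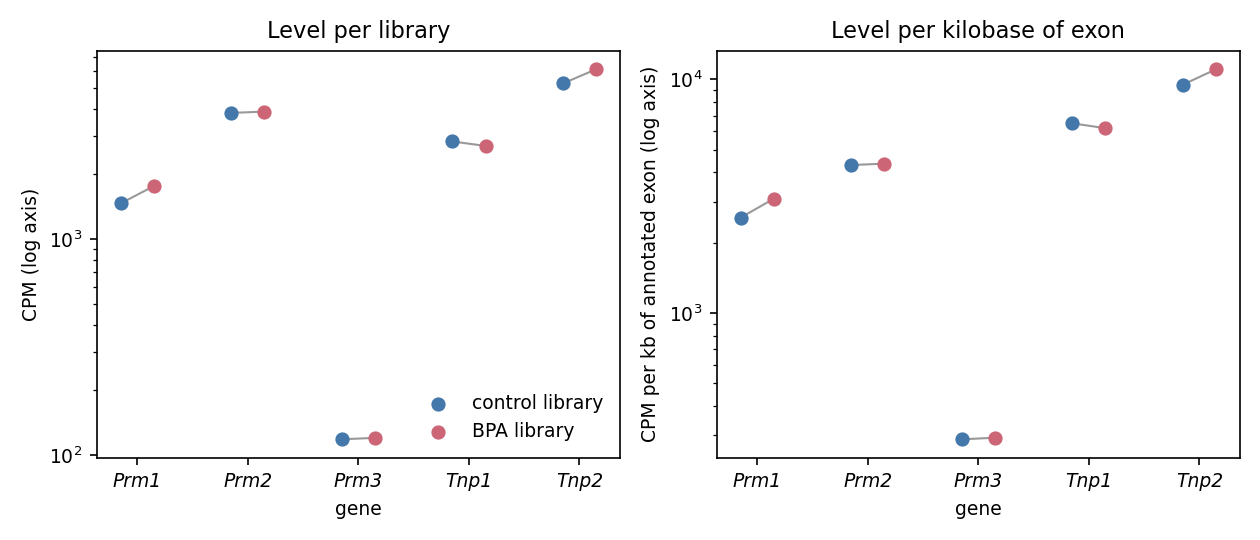
Level of each gene in the control library (blue) and the BPA library (red), as CPM on the left and as CPM per kilobase of annotated exon on the right, both on log axes; each point is 1 library, so there are no error bars. Tnp2 is the highest and Prm3 the lowest gene in each panel, and only Prm1 and Tnp2 show a clear upward line.

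Between the libraries, Prm1 and Tnp2 were higher with BPA, Prm2 and Prm3 were nearly level, and Tnp1 was slightly lower. None of the 5 reached 2-fold, a size that 1.32% of the 19389 genes passed on the higher side in the BPA library and 1.95% on the lower side. Differences are given as percent of the control value with a 95% Clopper-Pearson interval (exact binomial, from the reads). It covers counting error only, since each group has 1 library. As PCR copies are not independent molecules, it may be too narrow even for that error.

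Among the protamines, Prm1 was 20.4% higher in the BPA library (19.2 to 21.7), on 79939 reads against 61142. Prm2, on 176739 and 160618 reads, was 1.37% higher (0.683 to 2.05). Prm3, on 5442 and 4934 reads, was 1.60% higher with an interval from -2.25 to 5.62 that includes no difference. The protamine pair thus split: Prm1 stood well apart from its control level, and Prm2 and Prm3 lay within a few percent of theirs.

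Among the transition proteins, Tnp2 was 16.4% higher in the BPA library (15.8 to 17.1), on 277718 reads against 219772. Tnp1 went the other way, at -4.71% (-5.47 to -3.94), on 122528 and 118451 reads. The transition protein pair therefore also split, with its members on opposite sides of no difference. Of the 1083 CPM by which the summed level of all 5 genes was higher in the BPA library, Tnp2 gave 863 CPM and Prm1 299 CPM, while Prm2 gave 52.5, Prm3 1.89 and Tnp1 -133 CPM.

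The spread of other abundant genes sets the scale for these differences. On the log2 scale with 0.1 CPM added to each value, the ratio of BPA over control was 0.27 for Prm1, 0.22 for Tnp2, 0.02 for Prm2 and for Prm3, and -0.07 for Tnp1. For 2401 genes averaging at least 100 CPM over the libraries the median log2 ratio was -0.01, and the middle 95% of them lay between -0.19 and 0.20. Prm1 lay at percentile 99.0 of these genes and Tnp2 at percentile 98.0, with 23 and 47 genes above them, whereas Prm2 (65.0), Prm3 (66.3) and Tnp1 (24.3) lay in the body of the distribution. Among 66 genes averaging at least 1000 CPM, a level chosen after seeing the data, 0 had a higher ratio than Prm1 and only Prm1 had a higher one than Tnp2. On the other side, 1 of these genes, the sorbitol dehydrogenase gene Sord, lay as far below 0 as Tnp2 lay above it. These places describe this pair of libraries and are no test of BPA.

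**Figure D2:**
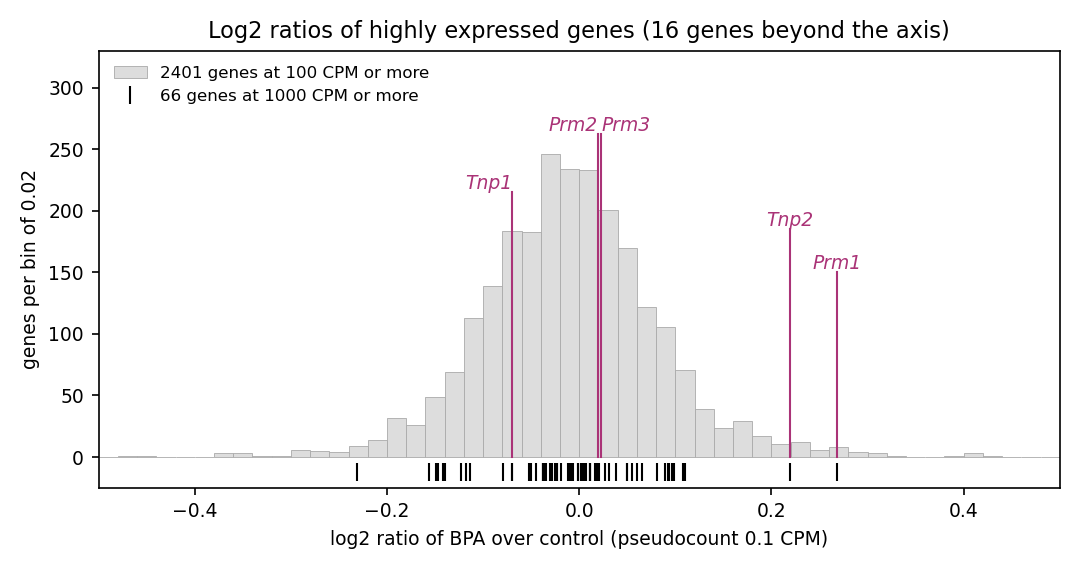
Histogram of the log2 ratio of BPA over control for 2401 genes at 100 CPM or more (grey, bins of 0.02; 16 genes lie beyond the axis), ticks for 66 genes at 1000 CPM or more, and a line for each of the 5 genes. Prm2, Prm3 and Tnp1 fall within the bulk; Tnp2 and Prm1 are the rightmost ticks.

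The authors' own statistics separate the members in the same way. They rest on the same 2 libraries and the same values, so they are no second line of support. The authors' deposited table lists Tnp2 at a q-value of 6.62e-13 (log2 fold change 0.22) and Prm1 at 0.000146 (log2 fold change 0.27). The q-values of Prm2, Prm3 and Tnp1 in the authors' deposited table are each 1.00 when rounded. A q-value under 0.005 was given to 32 of 29279 genes (0.109%) in the authors' deposited table, 20 higher and 12 lower. Of these, 28 have a log2 fold change above 1 in size in the authors' deposited table. The other 4 are Prm1, Tnp2, Kif9 and Ppp1r11, all higher in the BPA library. So 2 of the 5 members had a q-value under 0.005 beside a log2 fold change below 1 in size. These 4 genes each averaged at least 277 CPM, and a small fold change reaches a low q-value more readily on many reads. The share of 0.109% covers genes of all levels and is no like background for such abundant members. The share among abundant genes was not computed. With 1 library per group, those q-values carry no measure of the spread between animals.

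The balance of Prm1 to Prm2 was higher in the BPA library. In reads, the ratio of Prm1 to Prm2 was 0.381 in the control library (counting interval 0.377 to 0.384) and 0.452 in the BPA library (0.449 to 0.456). With this many reads such intervals are narrow, and they hold no spread between libraries or animals. Put as a share, Prm1 made up 27.6% of the reads of both genes in the control library and 31.1% in the BPA library. The ratio was 1.19 times as large with BPA (95% log interval of the reads 1.17 to 1.20), a shift of 0.25 on the log2 scale. Shifts of other pairs of abundant genes were not computed. The middle 95% of single genes averaging at least 100 CPM had log2 ratios between -0.19 and 0.20. A shift combines the log2 ratios of 2 genes and can spread more widely than that of 1 gene. This range therefore cannot show whether a shift of 0.25 is unusual for a pair. Gene length cancels in this shift but not in the ratio itself. Per kilobase of annotated exon, Prm1 stood at 0.596 of Prm2 in the control library and 0.708 in the BPA library. With all reads of each gene divided by its coding length alone, these values became 0.791 and 0.939. Prm2 was the higher of both genes on each of these scales and in each library.

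The transition proteins shifted against each other by a similar size. The ratio of Tnp1 to Tnp2 in reads was 0.539 in the control library (0.535 to 0.543) and 0.441 in the BPA library (0.438 to 0.444), 0.819 times as large (0.811 to 0.827). As whole classes, Tnp1 and Tnp2 together against Prm1 and Prm2 together, the reads gave 1.53 in the control library and 1.56 in the BPA library, 1.02 times as large (1.01 to 1.03). The split therefore ran within each class rather than between the classes.

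Over all 10 pairs, the shifts of Prm1 and of Tnp2 against any other member exceeded their shift against each other. Prm1 and Tnp2 kept nearly the same ratio to each other, 0.278 in the control library and 0.288 in the BPA library, a log2 shift of 0.05 (0.03 to 0.07). Prm2 and Prm3 shifted by -0.003 (-0.06 to 0.05), an interval that includes 0. The widest shift was that of Prm1 to Tnp1, at 0.34 (0.32 to 0.36). The remaining shifts against Prm1 or Tnp2 were 0.25 for Prm1 to Prm3 (0.19 to 0.30), -0.20 for Prm2 to Tnp2 (-0.21 to -0.19) and -0.20 for Prm3 to Tnp2 (-0.25 to -0.14). All pairs draw on the same 2 libraries and the same 5 values, so they are not independent of each other.

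**Figure D3:**
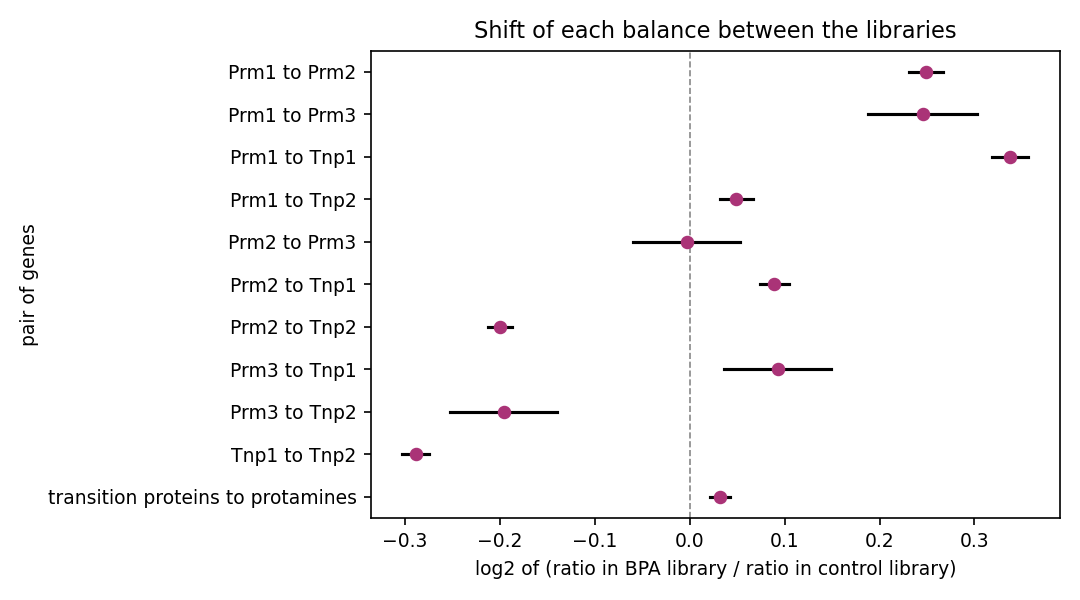
Log2 shift of the ratio of each pair of genes, and of transition proteins to protamines, from the control to the BPA library; dots are the shifts, bars their 95% intervals of counting error, and the dashed line marks no shift. Prm1 to Prm2 (0.25) and Tnp1 to Tnp2 (-0.29) lie far from the line on opposite sides, and only the bar of Prm2 to Prm3 crosses it.

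The members that stood higher were not next to each other in the cluster. Prm1 and Tnp2, which stood higher with BPA, are the outermost of the 4 genes on chromosome 16, and Prm2 and Prm3 lie between them. Beyond the cluster, 6 of 13 annotated genes within 250 kb passed 1 CPM, and 0 of them were 2-fold apart. As only 1.32% of all 19389 genes were 2-fold higher and 1.95% lower, this count says little about the stretch. Socs1, an inhibitor of cytokine signalling next to Tnp2, had 4.69 CPM in the control library and 4.19 CPM in the BPA library, and the pseudogene Gm10343 on the Prm1 side had 1.84 and 1.76 CPM. Clec16a had 94.4 and 86.9 CPM, Dexi 8.73 and 7.91 CPM, and Rmi2, of the complex that dissolves recombination intermediates, 3.23 and 3.09 CPM. Litaf alone of these 6 was above 0 on the log2 scale, at 0.30 (9.69 CPM in the control library, 11.9 CPM in the BPA library).

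Around Tnp1 on chromosome 1, 6 of 13 annotated genes passed 1 CPM, and 0 were 2-fold apart. Here too the shares over all 19389 genes are small, 1.32% higher and 1.95% lower. The noncoding RNA gene 1700027A15Rik, which starts beside Tnp1 in RefSeq, had 481 CPM in the control library and 475 CPM in the BPA library. In GENCODE it lies on the opposite strand, and 1 of its exons overlaps the first exon of Tnp1 over 40 bases (chr1:73015725-73015764), 9.15% of the exon length of Tnp1. Reads from those bases cannot be assigned to either gene without strand, and the library protocol describes no step that marks it. Igfbp2, an insulin-like growth factor binding protein gene, had 36.6 and 36.0 CPM. Low levels went with larger log2 ratios in Igfbp5 (-0.80, 2.18 and 1.21 CPM), Gm29185 (0.64, 2.22 and 3.53 CPM) and Gm31254 (0.28, 5.12 and 6.24 CPM), while Gm31047 had 1.36 and 1.32 CPM. The other 4 members overlap no exon of another gene, and none of the 5 shares a 50-base word with transcripts of another gene.

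**Figure D4:**
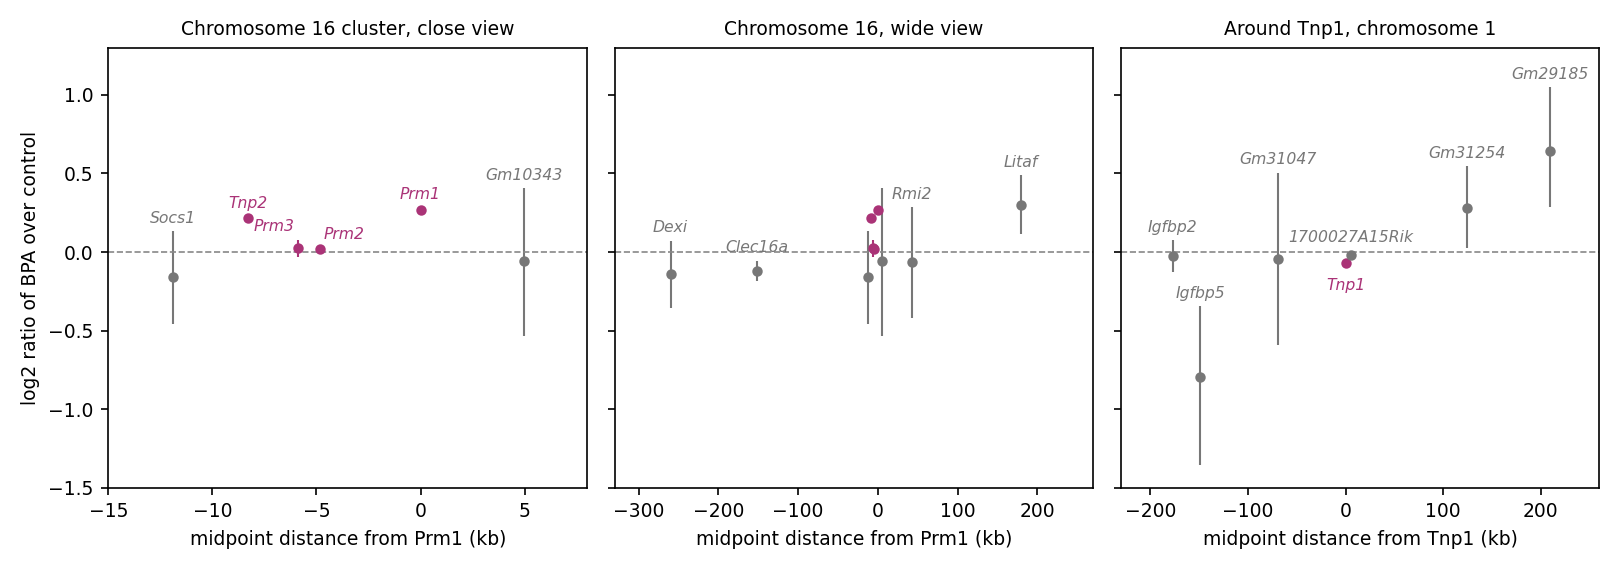
Log2 ratio of BPA over control for genes at 1 CPM or more around Prm1 (left, close view; middle, wide view) and around Tnp1 (right), against the distance between gene midpoints in kb; bars are 95% intervals of counting error and the 5 genes are in purple. In the close view Tnp2 (0.22) and Prm1 (0.27) flank Prm2 and Prm3 (both 0.02).

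Genes of histone replacement (spermatid histone variants and factors of histone removal and protamine loading) were mostly level or slightly lower in the BPA library. Of 27 such genes at 1 CPM, 1 was 2-fold higher and 0 were lower, against 1.32% higher and 1.95% lower over all genes. So small a count does not set the list apart. The median log2 ratio was -0.06, against 0.00 over all 19389 genes. Above 0 lay 8 of 27, against 50.9% of all genes. The 2-fold gene was Srpk1, a kinase that phosphorylates SR proteins and protamine 1, with 42.3 CPM in the control library and 87.5 CPM in the BPA library. H2ac1, a testis histone H2A gene, had 2.01 and 1.41 CPM, Parp2, which responds to DNA breaks, 11.6 and 13.6 CPM, and Dot1l, the histone H3 lysine methyltransferase, 493 and 434 CPM. Picked after their values were seen, the spermatid linker histone genes H1f7 (733 CPM in the control library, 809 CPM in the BPA library) and Hils1 (491 and 548 CPM) stood at 1.10 and 1.12 times their control levels.

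Most transcription factors of the spermatid programme lay close to their control level, with Sox5 and Fhl5 farthest from it. Of 15 genes, 0 were 2-fold higher and 1 was lower, against 1.32% higher and 1.95% lower over all 19389 genes. A count of 1 in so short a list says little about it. Their median log2 ratio was -0.03 with 5 above 0, where 50.9% of all genes lay above 0. Crem itself had 174 CPM in the control library and 170 CPM in the BPA library, and Kdm3a, a histone demethylase needed for Prm1 and Tnp1 transcription, had 143 and 140 CPM (both picked for their role, outside the size rule). The gene lower by 2-fold was Sox5, at 20.2 and 7.14 CPM, whose exons overlap the antisense gene Sox5os1. Fhl5, the coactivator of CREM, had 144 and 166 CPM, the ciliary regulator Rfx2 490 and 456 CPM, and Taf7, a subunit of the general factor TFIID, 20.0 and 18.6 CPM.

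Factors that store and translate spermatid mRNAs had no member 2-fold apart among 17. With 1.32% of all 19389 genes 2-fold higher and 1.95% lower, that count does not set them apart. Their median log2 ratio was -0.04 with 7 above 0, where 50.9% of all genes lay above 0. Ybx2, which binds and stores germ cell mRNAs, had 125 CPM in the control library and 108 CPM in the BPA library, and its relative Ybx3 had 2180 and 2009 CPM. Tsn, an RNA-binding protein, had 42.2 and 46.0 CPM, and the mRNA stabilising factor Elavl1 66.5 and 61.6 CPM.

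None of 14 structural markers of elongating spermatids had a log2 ratio as high as Prm1 or Tnp2. Few abundant genes did: of 2401 averaging at least 100 CPM, 48 reached the ratio of Tnp2, Tnp2 itself included. With so small a share, finding none among 14 does not set these markers apart from other abundant genes. All 14 lay within 2-fold, as did most genes, with 1.32% of all 19389 genes 2-fold higher and 1.95% lower. Their median log2 ratio was 0.02, and the summed level of the 14 was 15256 CPM in the control library and 15352 CPM in the BPA library. The highest log2 ratio among them was that of Akap4, a scaffold of the fibrous sheath, at 0.11 (1525 and 1643 CPM); Spem1 (563 and 596 CPM) and Akap3 (1115 and 1167 CPM) came next, and Tcp11 was lowest at -0.50 (155 and 109 CPM). The 5 protamine and transition protein genes, by comparison, had a median of 0.02 and a range from -0.07 to 0.27. Of them 4 lay above 0, where 50.9% of all genes did. Markers of the elongating stage thus summed to nearly equal levels beside Prm1 and Tnp2, with markers on both sides of 0 in that sum. Of the 14 markers, 8 lay above 0, against 50.9% of all genes. The largest part of the sum was Odf2, at 4535 CPM in the control library and 4421 CPM in the BPA library. Whether the number of elongating spermatids differed was not tested.

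Markers of other cells are given for the same reason. Round spermatid markers (12) had a median log2 ratio of -0.08 and summed to 1732 CPM in the control library and 1654 CPM in the BPA library, with Tssk1 (6.96 and 5.38 CPM), Zpbp (225 and 207 CPM), Dpy19l2 (212 and 197 CPM) and Tssk2 (6.15 and 6.55 CPM) farthest from 0. Spermatocyte markers (10) had a median of 0.02, with Pou5f2 at 0.36, Sycp3 at -0.17, Ccna1 at -0.14 and Meiob at -0.08. Spermatogonial markers (9) had a median of 0.08, with Stra8 at 0.42, Gfra1 at -0.24, Zbtb16 at 0.23 and Kit at 0.13. No marker of these 3 germ cell lists was 2-fold apart, where 1.32% of all 19389 genes were 2-fold higher and 1.95% lower.

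Among somatic lists, 11 of 12 Sertoli markers lay above 0 with a median of 0.21, where 50.9% of all 19389 genes lay above 0. The highest ratios were at low levels: Shbg (0.71, 5.57 and 9.19 CPM), Fshr (0.67, 2.25 and 3.64 CPM) and Rhox5 (0.50, 3.73 and 5.33 CPM). Rhox8 (-2.58, 9.04 and 1.43 CPM) was 2-fold lower. Leydig markers (7) had a median of 0.16, with Hsd3b6 at 0.81, Star at 0.43, Hsd3b1 at -0.35 and Lhcgr at 0.27. Adipocyte markers summed to 94.5 CPM in the control library and 27.9 CPM in the BPA library. Of the 8, 6 were lower by 2-fold, against 1.95% of all genes: Fabp4 (-3.50), Cidec (-3.49), Cfd (-3.32), Car3 (-2.99), Lpl (-2.67) and Lep (-1.46). The other adipocyte markers, Adipoq (17.2 and 15.4 CPM) and Plin1 (4.88 and 4.47 CPM), lay within 2-fold. Of 8 epididymal markers, 5 were under 1 CPM in both libraries and 3 carry no value in the table. The part of these cell types in the differences of Prm1 and Tnp2 was not tested.

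**Figure D5:**
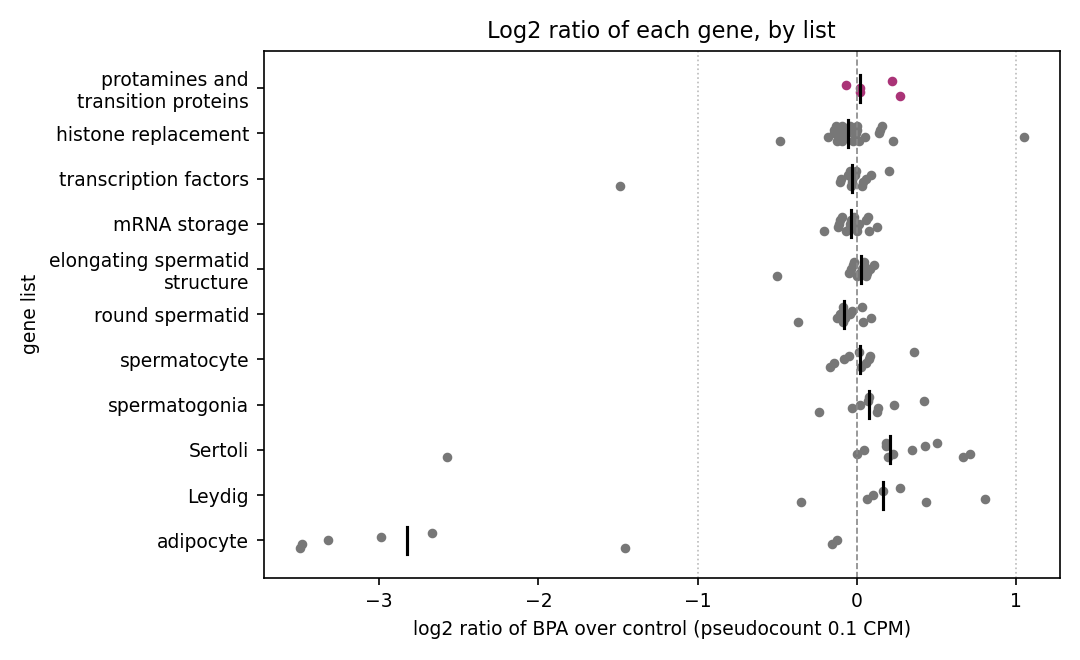
Log2 ratio of BPA over control for each gene at 1 CPM or more, by list; dots are genes, black bars list medians, dotted lines 2-fold and the dashed line no difference. The 5 genes (purple) lie between -0.07 and 0.27 and 6 of the 8 adipocyte genes lie to the left of the 2-fold line.

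By level and ratio together, the genes nearest to each member were named by distance over both libraries on the log2 scale. Nearest to Prm3 were Ift80 (distance 0.01) and Tex37 (0.02), and nearest to Tnp1 were Pabpc1 (0.03) and Akap12 (0.04). Prm1 was nearest to Akap4 (0.12) and Slc2a3 (0.12), and Prm2 to Dnah8 (0.13) and Ldhc (0.17). Tnp2 had no close match: Odf2 lay at 0.52 and Cbx7 at 0.54, with log2 ratios of -0.04 each. With 2 values per gene, such likeness describes this pair of libraries only.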

How the data were processed

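Per the labels' protocols, testis RNA was extracted with Trizol, enriched on oligo(dT) beads and copied from random hexamers. HISAT2 2.0.4, HTSeq 0.6.1 and mm10 are named in the submitters' processing notes; for the annotation, strand setting, scaling and p-value method, the sources used here name none. The deposited value columns, though headed as read counts, hold CPM (sums of 995266 and 997834), with values under 1 written as 0. The deposited log2 fold change is the log2 ratio of BPA over control, and the deposited p-value and q-value columns were only copied. Values above 0 are whole multiples of 0.0220 CPM (BPA) and 0.0239 CPM (control), taken as 1 read each, which puts the depth at 45377700 and 41801900 reads. Zeros beside a listed value were filled from the deposited fold change (812 and 592 genes); no member needed this. No count model was fitted.

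A gene passed at 1 CPM in the higher library; log2 ratios used a pseudocount of 0.1 CPM, and 2-fold was the size rule. Lengths came from GENCODE M21, symbols and starts from RefSeq (40269 of 44002 rows matched). Named genes were the members, the 4 list genes with the log2 ratio largest in size and any past 2-fold, neighbours within 250 kb and the 2 nearest genes by level. Members and lists were chosen with earlier results of these data known. Analysis used Python 3.11.15, pandas 2.3.3 and SciPy 1.17.1.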

Additional observations from a re-analysis of the deposited data

How the results depend on the processing

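The log2 ratios of the 5 genes stayed within their counting intervals and on the same side of 0 under all 25 combinations of gene and setting (no pseudocount, a pseudocount of 1 CPM, median ratio scaling, trimmed mean scaling, and the total without the 5 genes), moving by at most 0.005. The shift of the Prm1 to Prm2 balance stayed at 0.25 under both pseudocounts. Neither outcome is a check on the result, since these settings could hardly move values at such levels. Each pseudocount is small beside levels of 118 CPM or more. The scalings shifted all genes alike on the log2 scale, by -0.005, -0.004 and 0.005 in the order given. The balance per kilobase itself depends on the length used: 0.596 (control) and 0.708 (BPA) by annotated exons became 0.791 and 0.939 by coding length, 0.381 and 0.452 without length, and 0.504 and 0.599 by the transcript nearest the RefSeq span, which was added after seeing the data. The counts of all genes past 2-fold, 256 higher and 379 lower, became 80 and 103 at a floor of 4 CPM, 828 and 1042 at 1.5-fold, 82 and 123 with a pseudocount of 1 CPM, 1938 and 2582 with no floor, where the deposited fold changes were used, and 686 and 937 with listed zeros as 0, also added later. No paired analysis was possible because each group has 1 library, and no library could be left out. Depth limits Prm3 most, whose 4934 reads in the control library leave an interval that includes no difference, and the spread between animals was not measured.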
